A study of Mus musculus with 10 samples.

Results

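The genes examined here were 8 transcription factors listed together as factors of the dental epithelium, namely Tfap2a, Tfap2b, Tfap2c, Trp63, Grhl2, Grhl3, Sp6 and Klf5. The name of the list does not mean that each is expressed only there. They were chosen by symbol in the GENCODE M21 annotation of the mouse genome (GRCm38), and all 8 were found among the 18381 genes of the count table. The first lower molars of wild type C57BL/6JOlaHsd embryos at embryonic day 14 (E14) were kept in hanging drops for 6 h. Each of 5 embryos, numbered 1, 2, 3, 4 and 6, gave 1 tooth to medium with mouse recombinant insulin-like growth factor 1 (IGF1) at 750 ng/ml and its other tooth to medium with the same volume of vehicle, a phosphate-buffered saline with bovine serum albumin. There were thus 5 IGF1 teeth and 5 control teeth, each sequenced as its own RNA library, with left and right sides balanced. Because both groups were cultured, the comparison addresses IGF1 within cultured teeth, and uncultured teeth were not analysed here.

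At E14 the molar is at the cap stage, when the epithelium folds around the condensed mesenchyme and the enamel knot acts as a signalling centre. Trp63 encodes p63, the p53 relative needed for stratified epithelia and for teeth to form at all, and Grhl2 and Grhl3 are Grainyhead factors that keep epithelial junctions and barriers in place. The AP-2 factors Tfap2a, Tfap2b and Tfap2c act in surface ectoderm and in neural crest cells, so in a tooth germ they are not restricted to the epithelium. Sp6, also called epiprofin, is needed for dental epithelial cells to become ameloblasts, and Klf5 is a Krüppel-like factor of proliferating epithelia.

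Of the 8 factors, Tfap2c fell with IGF1, and none of the others passed the test. Tfap2c was lower in the IGF1 tooth of each of the 5 embryos, by 31.4% in the fit. Tfap2b had the next largest change relative to its error, with a log2 change of -0.29 and an adjusted p of 0.0765. Grhl2 was the only factor with a fitted change above 0, and its change was close to that of the summed epithelial markers in every embryo. Sp6 varied most between the IGF1 teeth.

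The test was edgeR's quasi-likelihood test over all 14504 genes that passed its filter on low counts, with the embryo as a replicate block, and a gene was called at a Benjamini-Hochberg adjusted p under 0.05. All 8 factors passed the filter. It called 1 of the 8, against 11.5% of all genes tested, and that gene was lower, against 4.76% of all genes called lower. At an unadjusted p under 0.05 there were 2, Tfap2c and Tfap2b, beside 3842 of the 14504 genes tested. The median log2 change of the 8 was -0.21, beside a median of -0.004 over all genes tested, and 7 of the 8 were below 0. Tfap2c was the only 1 of the 8 that was lower in all 5 embryos, as were 11.2% of all genes. For none of the 8 were the IGF1 and control teeth fully separated. Groups that did not overlap were found for 7.25% of all genes, and with only 8 factors this is no contrast.

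A control tooth gave between 2845773 and 8403151 counts (median 6899838), and an IGF1 tooth between 3456634 and 8763113 (median 7080190). The factors' own counts ran from 57 for Grhl3 to 2120 for Trp63 in a single tooth, and Grhl3 and Tfap2a had the fewest, with 57 to 214 and 83 to 192 counts. The labels name the whole molar, and markers of several cell types were found in it. The summed level of 22 epithelial markers was 3621 to 5392 CPM (counts scaled to a common library size, as edgeR gives them) in the control teeth and 4116 to 5557 CPM in the IGF1 teeth, and that of 15 mesenchymal markers was 7520 to 9725 and 6946 to 9613 CPM. None of the listed markers was at 0 in all teeth. Summed endothelial (369 to 420 CPM in the control teeth, 292 to 385 CPM in the IGF1 teeth), macrophage (55.4 to 77.3 and 48.1 to 76.6 CPM) and red cell markers (849 to 1422 and 604 to 1109 CPM) were lower in the IGF1 tooth of every embryo, with 1 of 7, 1 of 7 and 5 of 6 tested genes called lower. Of all genes tested, 11.5% were called, 4.76% were called lower and 11.2% were lower in all 5 embryos. Glial markers summed to 76.3 to 102 and 70.5 to 82.6 CPM, with none of 3 tested genes called. The 10 hypoxia response genes summed to 361 to 586 CPM in the control teeth and 616 to 2803 CPM in the IGF1 teeth. Of these genes 8 of 9 tested rose, beside 975 of all 14504 genes tested. The part of these shifts in the changes given here was not tested. In a whole tooth, fewer cells of a type and less RNA per cell cannot be told apart.

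**Figure D1:**
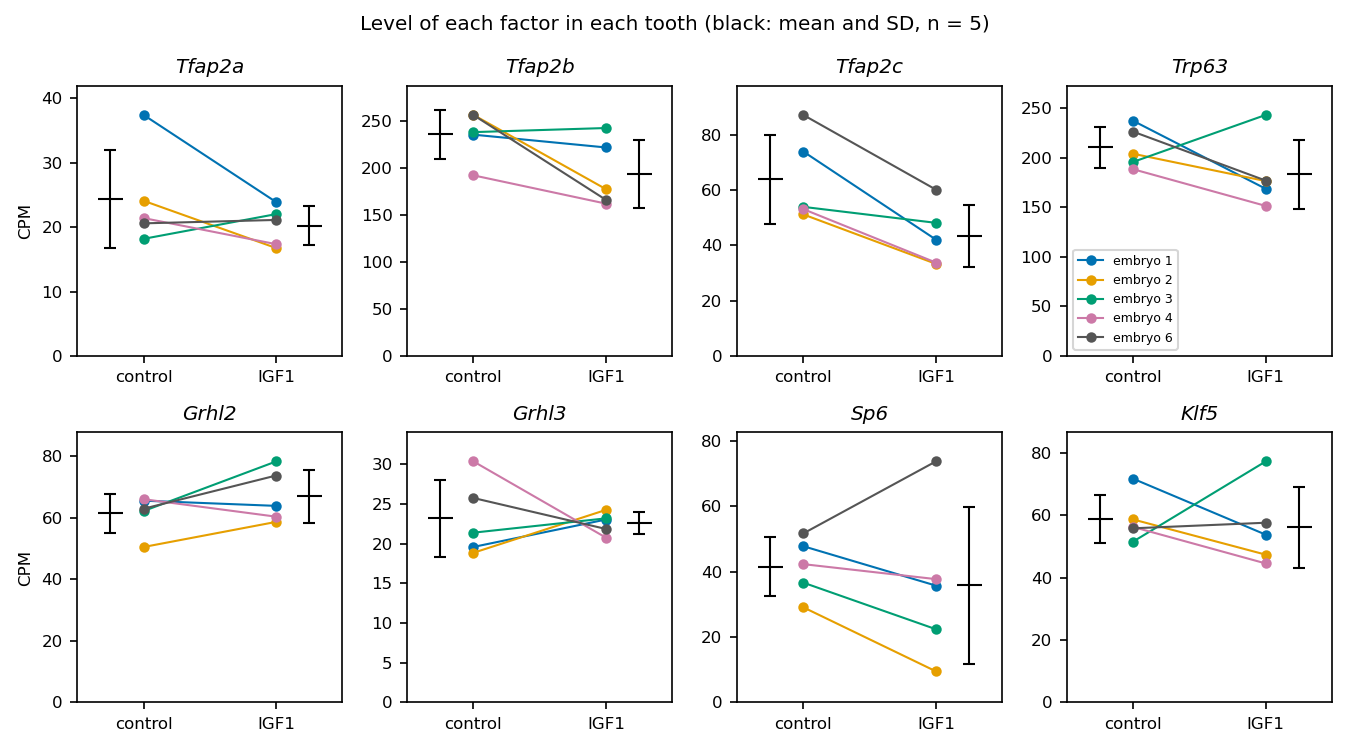
Level of each of the 8 factors in CPM (linear axes from 0) in the control and the IGF1 tooth of each embryo, joined by a line; black bars give the mean and SD of 5 teeth. Every Tfap2c line slopes down, from 51.1 to 87.1 CPM in the control teeth to 33.3 to 60.1 CPM in the IGF1 teeth, while the lines of the other factors cross or point both ways.

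To set levels side by side between genes, CPM were divided by the length of each gene's joined exons, giving CPM per kb. In the control teeth Tfap2b was the highest, at 37.2 ± 4.15 CPM per kb (SD, n = 5), followed by Trp63 at 25.1 ± 2.47 and Tfap2c at 17.3 ± 4.34. Klf5, Sp6, Grhl3 and Grhl2 came next with 11.3 ± 1.47, 10.8 ± 2.33, 8.31 ± 1.73 and 7.14 ± 0.736 CPM per kb, and Tfap2a was the lowest at 4.97 ± 1.55. Between neighbours in this order, the 5 control teeth did not overlap for Tfap2b and Trp63 or for Tfap2c and Klf5, and they overlapped for the other pairs of neighbours. The order is a description, since a gene's expressed isoforms may be shorter than its joined exons.

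The 3 AP-2 genes encode related proteins that bind DNA as dimers. Their coding sequences are 69.5% identical between Tfap2a and Tfap2b, 66.3% between Tfap2a and Tfap2c and 64.8% between Tfap2b and Tfap2c in the annotation's transcripts. The 90-base single-exon coding stretch in which Tfap2c is closest to both relatives is printed below because the counts can tell the genes apart only where their messages differ. Capitals in Tfap2c mark bases that differ from Tfap2a or Tfap2b, and capitals in the other two mark bases that differ from Tfap2c. The stretches lie in exon 4 of Tfap2c (chr2:172553543-172553632, plus strand), exon 3 of Tfap2a (chr13:40723091-40723180, minus strand) and exon 4 of Tfap2b (chr1:19226566-19226655, plus strand), in GRCm38, and all are written 5′ to 3′ along the gene.
Tfap2c: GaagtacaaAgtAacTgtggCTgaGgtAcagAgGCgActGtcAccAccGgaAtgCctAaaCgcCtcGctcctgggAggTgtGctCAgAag
Tfap2a: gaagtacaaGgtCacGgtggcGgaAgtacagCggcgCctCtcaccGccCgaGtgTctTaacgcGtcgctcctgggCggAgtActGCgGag
Tfap2b: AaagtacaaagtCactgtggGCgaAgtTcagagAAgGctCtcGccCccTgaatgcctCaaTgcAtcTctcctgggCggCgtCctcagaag
Even here Tfap2a and Tfap2b each differed from Tfap2c at 20 of the 90 bases, and the longest identical run within the stretch was 11 bases. Over the aligned coding sequences, the longest identical run was 17 bases for Tfap2a and Tfap2c and 11 for Tfap2b and Tfap2c. For Tfap2a and Tfap2b it was 29 bases. Over whole messages, no run of 31 bases was shared between any of the 8 factors.

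Tfap2c (ENSMUSG00000028640, chr2:172549593-172558622) keeps early ectoderm and trophoblast in a proliferative state and acts in the epidermis. Its level was 73.9, 51.1, 53.9, 53 and 87.1 CPM in the control teeth of embryos 1, 2, 3, 4 and 6, and 42.0, 33.3, 48.1, 33.7 and 60.1 CPM in their IGF1 teeth. Each IGF1 tooth was below the control tooth of the same embryo, but the groups overlapped, since the IGF1 tooth of embryo 6 lay above 3 of the 5 control teeth. The log2 change was -0.54 (SE 0.0961, 95% interval -0.76 to -0.33, edgeR adjusted p = 0.00472), the 462nd lowest p of the 14504 genes. The change was least in embryo 3, at -0.16, and ranged from -0.53 to -0.81 in the others. Without the replicate block the log2 change was -0.55 and the call was lost (adjusted p = 0.111); control teeth of different embryos ranged 1.70-fold. With any embryo left out, Tfap2c was still called.

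Tfap2b (ENSMUSG00000025927, chr1:19208914-19238576), which acts in neural crest and in the developing face, was measured at 236, 257, 238, 192 and 257 CPM in the control teeth of embryos 1, 2, 3, 4 and 6. In the IGF1 teeth it was 222, 178, 243, 162 and 166 CPM. It was lower in 4 of 5 embryos, with a log2 difference of -0.63 in embryo 6, and the teeth of embryo 3 hardly differed. The log2 change was -0.29 (SE 0.0965, 95% interval -0.51 to -0.08), with an unadjusted p of 0.0112 and an edgeR adjusted p of 0.0765. It passed the threshold in DESeq2's Wald test (adjusted p = 0.0404) and without embryo 3 (log2 change -0.38, adjusted p = 0.0241).

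Tfap2a (ENSMUSG00000021359, chr13:40715302-40738376) is the AP-2 gene best known for its role in neural crest and craniofacial development. Its level was 37.4, 24.1, 18.2, 21.4 and 20.6 CPM in the control teeth and 23.9, 16.8, 22, 17.4 and 21.1 CPM in the IGF1 teeth of embryos 1, 2, 3, 4 and 6. The groups overlapped, 3 embryos were lower and 2 higher, and the control tooth of embryo 1 stood above the rest. The log2 change was -0.22 (SE 0.142, 95% interval -0.53 to 0.09, adjusted p = 0.365). It was -0.12 without embryo 1, -0.14 without embryo 2 and -0.35 without embryo 3, and was not called in any of these fits. Antisense genes on the other strand share 718 of its 4903 exon bases, and the strand setting of the counting is not given in the sources used here.

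Whether Tfap2c changed differently from its relatives was compared within embryos, with exact two-sided sign-flip permutation tests over the 5 embryos, which cannot give a p below 0.063. The log2 change of Tfap2a exceeded that of Tfap2c in 5 of 5 embryos, by 0.32 on average (95% interval 0.08 to 0.56, exact p = 0.063, adjusted over 4 pairs 0.25). Tfap2b exceeded Tfap2c in 4 of 5 embryos, by 0.26 (95% interval -0.13 to 0.65, exact p = 0.1875, adjusted 0.375). Tfap2a and Tfap2b differed by 0.06 (95% interval -0.49 to 0.61, exact p = 0.6875, adjusted 0.6875), an interval that leaves room for differences in either direction. None of the pairs passed the threshold after adjustment. On the per-kb scale Tfap2c made up 28.9% ± 4.32 (SD, n = 5) of the summed AP-2 level in the control teeth and 25.4% ± 5.36 in the IGF1 teeth, while Tfap2b made up 62.8% ± 4.84 and 65.8% ± 5.55 and Tfap2a 8.34% ± 2.22 and 8.89% ± 0.612. These shares overlapped between the groups. Tfap2d and Tfap2e were looked up by symbol and were not found in the count table.

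**Figure D2:**
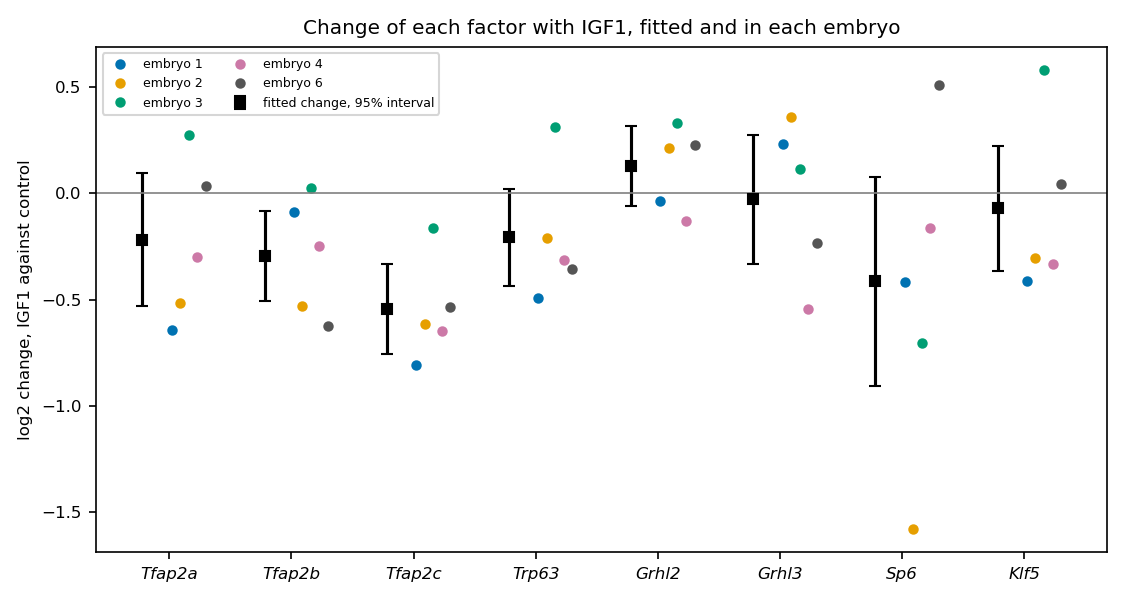
Log2 change of each factor, IGF1 against control, with the fitted change and its 95% interval as black squares and bars and the change in each of the 5 embryos as coloured points. The intervals of Tfap2c (-0.76 to -0.33) and Tfap2b (-0.51 to -0.08) lie below 0, and the Sp6 points spread from -1.58 to 0.51.

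Trp63 (ENSMUSG00000022510, chr16:25683763-25892102) was measured at 237, 204, 196, 189 and 226 CPM in the control teeth of embryos 1, 2, 3, 4 and 6 and at 169, 177, 243, 151 and 177 CPM in their IGF1 teeth. It was lower in 4 embryos and higher in embryo 3, whose IGF1 tooth was the highest of all 10 teeth. The log2 change was -0.21 (SE 0.103, 95% interval -0.43 to 0.02, adjusted p = 0.234), and without embryo 3 it was -0.34 (adjusted p = 0.0130). Its relative Trp73, which encodes p73, fell with IGF1 in all 5 embryos, from 25.0 to 51.5 CPM in the control teeth to 10.6 to 24.2 CPM in the IGF1 teeth (log2 change -1.02, SE 0.104, adjusted p = 0.000186). Trp53 had a log2 change of 0.05 (SE 0.0782, adjusted p = 0.744). The coding sequences of Trp63 and Trp73 are 65.9% identical, and their closest 90-base stretch in a single exon is shown to set the gene that fell beside the one that did not pass the test. Capitals mark bases that differ between them, in exon 4 of Trp63 (GRCm38 chr16:25820550-25820639, plus strand) and exon 4 of Trp73 (chr4:154081332-154081421, minus strand).
Trp63: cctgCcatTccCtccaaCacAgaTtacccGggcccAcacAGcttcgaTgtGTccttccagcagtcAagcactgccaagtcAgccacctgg
Trp73: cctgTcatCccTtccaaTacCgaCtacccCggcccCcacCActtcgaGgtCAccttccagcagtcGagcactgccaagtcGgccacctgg
They differed at 15 of the 90 bases, and the Trp63 messages shared no run of 31 bases with any other gene on the same strand.

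Among 17 genes known as p63 targets, 1 was called higher and 6 lower, and the median log2 change of the 17 was -0.07. Of all genes tested, 11.5% were called and 4.76% were called lower. The 4 with the lowest p were Dst, Col17a1, Krt5 and Itgb4. Dst encodes a cytoskeletal linker, Col17a1 a transmembrane collagen, Itgb4 an integrin subunit that pairs with that of Itga6, and Krt5 a keratin of basal cells. Dst had a log2 change of -0.55 (SE 0.0663, adjusted p = 0.000560), Col17a1 of -0.54 (SE 0.0883, adjusted p = 0.00320) and Itgb4 of -0.50 (SE 0.11, adjusted p = 0.0144), and each was lower in 5 of 5 embryos. Krt5 had a log2 change of 0.43 (SE 0.0917, adjusted p = 0.0126), and was higher in 5 of 5 embryos. Itga6, also in the list, did not pass the test (log2 change -0.14, adjusted p = 0.342). The listed targets moved in both directions while Trp63 itself did not pass the test.

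Grhl2 and Grhl3 encode Grainyhead factors whose targets include genes of cell junctions. Their coding sequences are 61.9% identical, and the closest 90-base stretch in a single exon, printed to show how far their messages differ, lies in exon 2 of each (GRCm38 chr15:37270662-37270751, plus strand, and chr4:135561203-135561292, minus strand). Capitals mark the 13 bases that differ.
Grhl2: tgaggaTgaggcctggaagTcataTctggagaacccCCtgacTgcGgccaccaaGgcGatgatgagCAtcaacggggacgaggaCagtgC
Grhl3: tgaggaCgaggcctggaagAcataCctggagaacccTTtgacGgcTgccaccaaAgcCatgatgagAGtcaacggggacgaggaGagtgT
The longest identical run in the pair was 16 bases.

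Grhl2 (ENSMUSG00000022286, chr15:37233036-37363569) was measured at 65.6, 50.5, 62.2, 66.1 and 63 CPM in the control teeth of embryos 1, 2, 3, 4 and 6 and at 63.9, 58.7, 78.4, 60.4 and 73.8 CPM in their IGF1 teeth. It was higher in 3 embryos and lower in 2, with overlapping groups (log2 change 0.13, SE 0.0861, 95% interval -0.06 to 0.32, adjusted p = 0.381). Grhl3 (ENSMUSG00000037188, chr4:135541888-135573630), which acts in the outer epidermal barrier, was at 19.6, 18.8, 21.4, 30.4 and 25.7 CPM in the control teeth and at 23.0, 24.2, 23.2, 20.7 and 21.8 CPM in the IGF1 teeth. The IGF1 teeth all lay within the range of the control teeth (log2 change -0.03, SE 0.139, 95% interval -0.33 to 0.28, adjusted p = 0.925). The log2 changes of Grhl2 and Grhl3 differed by 0.14 (95% interval -0.27 to 0.54), with Grhl2 above Grhl3 in 3 of 5 embryos (exact p = 0.375, adjusted 0.5).

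Grhl1, the remaining Grhl gene, fell in all 5 embryos. It was at 17.2, 14.9, 14.2, 15.3 and 19.1 CPM in the control teeth of embryos 1, 2, 3, 4 and 6 and at 9.50, 10.9, 11.7, 9.88 and 12.4 CPM in their IGF1 teeth. These groups did not overlap (log2 change -0.54, SE 0.131, adjusted p = 0.0220). The more distant relatives with the highest levels, Tfcp2 and Ubp1, had log2 changes of -0.11 and -0.05 and did not pass the test. None of the 9 tested Grainyhead targets (10 listed) passed it either, beside 11.5% of all genes tested, and their median log2 change was 0.24. Among these, Cdh1, which encodes E-cadherin, and Esrp1, an epithelial splicing regulator, had log2 changes of 0.19 (adjusted p = 0.240) and 0.24 (adjusted p = 0.163).

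Sp6 (ENSMUSG00000038560, chr11:97013394-97024734) was at 47.8, 29.1, 36.6, 42.3 and 51.6 CPM in the control teeth of embryos 1, 2, 3, 4 and 6. In their IGF1 teeth it was at 35.7, 9.51, 22.4, 37.7 and 73.7 CPM. The highest IGF1 tooth, of embryo 6, thus stood 7.75-fold above the lowest, of embryo 2, compared with 1.78-fold among the control teeth. The log2 change was -0.41 (SE 0.223, 95% interval -0.91 to 0.08, adjusted p = 0.273), with 4 embryos lower and 1 higher. It was -0.17 without embryo 2, -0.70 without embryo 6 and -0.21 without the replicate block, and was not called in any of these fits. Among the control teeth, those of embryos 2 and 3 had the lowest Sp6 levels. These embryos also had the lowest Sp6 changes, at -1.58 and -0.70. Their log2 changes of the summed hypoxia response genes were the highest, at 2.54 and 2.24, beside 0.48, 0.79 and 0.77 in embryos 1, 4 and 6. The part of that response in the Sp6 values was not tested. The antisense gene Gm11532 shares 3329 of the 3841 exon bases of Sp6, and without the strand setting their reads cannot be told apart.

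Genes tied to Sp6 in the tooth include Fst, an activin and BMP antagonist, and the enamel matrix genes. Fst fell with IGF1 (log2 change -0.44, SE 0.118, adjusted p = 0.0365), from 71.0 ± 11.0 to 52.4 ± 8.22 CPM (SD, n = 5). It was lower in 4 embryos and higher in 1, and the groups overlapped. Ambn, which encodes ameloblastin, was at 18.3 ± 6.59 and 12.9 ± 2.41 CPM and did not pass the test (log2 change -0.49, adjusted p = 0.181). Amtn and Amelx, also listed, were not found in the count table. Of the 7 tested Sp relatives none was called, beside 11.5% of all genes tested, and their median log2 change was -0.09. The pair with the highest levels, Sp1 and Sp3, had log2 changes of 0.04 and -0.05.

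Klf5 (ENSMUSG00000005148, chr14:99298691-99315036) was at 71.8, 58.7, 51.6, 56.3 and 55.9 CPM in the control teeth of embryos 1, 2, 3, 4 and 6 and at 53.9, 47.4, 77.4, 44.6 and 57.7 CPM in their IGF1 teeth. It was lower in 3 embryos and higher in 2, and the groups overlapped (log2 change -0.07, SE 0.133, 95% interval -0.36 to 0.22, adjusted p = 0.786). As with Trp63, the IGF1 tooth of embryo 3 was the highest of the 10 teeth. Of 14 tested Klf relatives 1 rose and 2 fell, with a median log2 change of -0.06, beside 11.5% of all genes called. Klf16 rose (log2 change 0.68, SE 0.179, adjusted p = 0.0323), while Klf7 and Klf11 fell (log2 changes -0.35 and -0.60, adjusted p = 0.0209 and 0.00954). Klf6 and Klf12, the relatives with the highest CPM without division by length, had log2 changes of -0.16 and -0.02 and did not pass the test.

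The 8 factors did not move alike from embryo to embryo. In embryo 4 all 8 were lower in the IGF1 tooth, with a median log2 difference of -0.31, and in embryo 1 it was 7 of 8, with a median of -0.41. In embryo 2 there were 6 lower, with a median of -0.41, and embryo 6 was evenly split, with 4 higher and 4 lower and a median of -0.10. Embryo 3 stood apart, since 6 of the 8 were higher in its IGF1 tooth and the median was 0.19. The median over all genes lay between -0.01 and 0.02 in every embryo.

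Because epithelium and mesenchyme share each tooth, each factor was also set against the summed CPM of the 22 epithelial markers. That sum had log2 changes of -0.05, 0.19, 0.38, -0.18 and 0.26 in embryos 1, 2, 3, 4 and 6, close to the Grhl2 changes of -0.04, 0.21, 0.33, -0.13 and 0.23. The mesenchymal markers had log2 changes of -0.06, 0.03, -0.37, -0.16 and -0.11. Relative to the epithelial markers, Grhl2 had a mean log2 change of 0.0023 (SD 0.0399, n = 5, 95% interval -0.05 to 0.05), the narrowest spread of the 8 factors. Some of these markers are themselves listed p63 or Grainyhead targets, and over the 15 that are not the mean for Grhl2 was 0.073 (exact p = 0.063). Tfap2c was lower in 5 of 5 embryos, with a mean of -0.68 (SD 0.156, 95% interval -0.87 to -0.48). Trp63, Tfap2a and Tfap2b were also lower in 5 of 5, with means of -0.33 (SD 0.228), -0.35 (SD 0.283) and -0.41 (SD 0.381). For Tfap2b the values in embryos 1, 2, 3, 4 and 6 were -0.04, -0.72, -0.35, -0.07 and -0.89. The AP-2 genes are not restricted to the epithelium, so their ratios also depend on the shares of the tissues in a tooth. The part of these shares in the ratios was not tested. In CPM alone, Trp63 and Tfap2b were lower in 4 embryos and Tfap2a in 3. With these markers as library size, the median log2 change of all genes was -0.13, and 644 of 962 calls were lower. The share of all genes lower in 5 of 5 on this scale was not counted. For Tfap2c, Trp63, Tfap2a and Tfap2b the exact sign-flip permutation test gave p = 0.063 each, the smallest that 5 embryos allow. It was 0.125 for each after adjustment over the 8 factors. For Tfap2b this depended on the markers, since the mean was -0.34 over the 16 markers without keratins and over the 15 without listed targets (exact p = 0.25 and 0.1875), whereas Tfap2c, Trp63 and Tfap2a kept p = 0.063 with both of these lists. Klf5, Grhl3 and Sp6 had means of -0.21 (SD 0.266), -0.13 (SD 0.345) and -0.60 (SD 0.84), and went in both directions. Among the epithelial markers alone, 1 of 22 was called, Krt5, which rose, beside 11.5% of all genes called. The median log2 change of the 22 was 0.17. Of 15 mesenchymal markers 5 were called lower, beside 4.76% of all genes tested, and the median of the 15 was -0.11. The lowest p among the 15 were those of Pdgfra, Vim, Snai2 and Pdgfrb, which fell. Lum, Col1a1, Col1a2 and Prrx2 had log2 changes above 0 (0.22, 0.14, 0.10 and 0.02) and were not called.

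**Figure D3:**
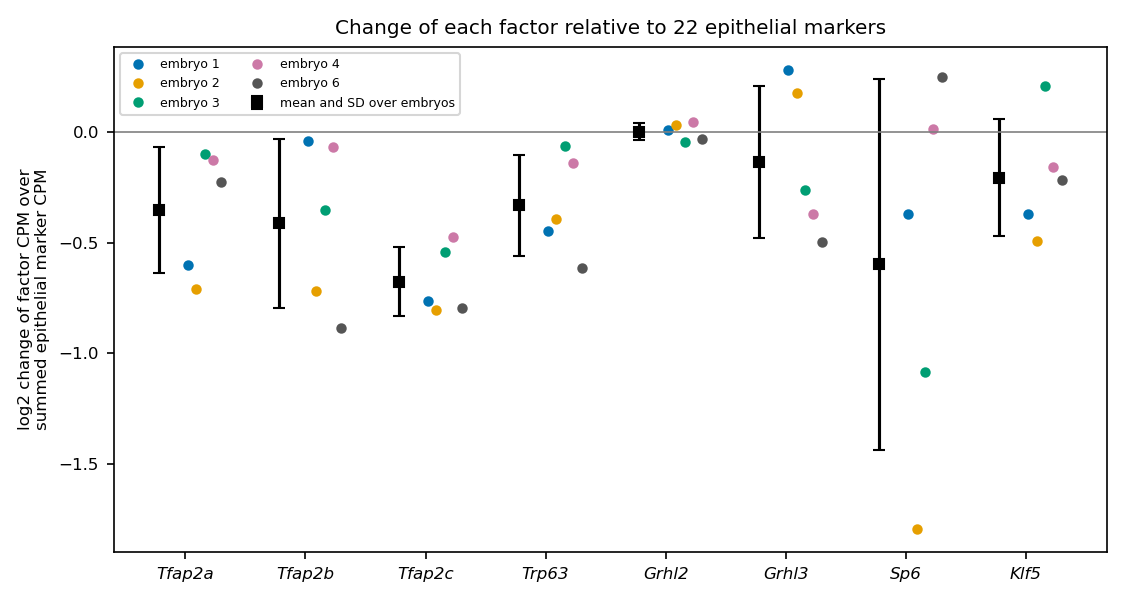
Log2 change of each factor's CPM over the summed CPM of 22 epithelial markers, IGF1 against control, with a point for each of the 5 embryos and the mean and SD in black. Grhl2 stays between -0.04 and 0.05 in every embryo, and Tfap2c lies between -0.80 and -0.48.

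Of 17 other tested transcription factors of dental and surface epithelium (19 listed), 1 rose and 1 fell, with a median log2 change of -0.05. The share called was 11.8%, near the 11.5% of all genes tested. Elf3, an Ets factor of differentiating epithelia, was at 7.21, 3.51, 4.37, 5.82 and 3.79 CPM in the control teeth of embryos 1, 2, 3, 4 and 6 and at 9.79, 30.7, 21.7, 9.32 and 8.99 CPM in their IGF1 teeth. These groups did not overlap (log2 change 1.66, SE 0.338, adjusted p = 0.0100), and the highest teeth were those of embryos 2 and 3. In these embryos Sp6 was lowest in both the control and the IGF1 teeth, and the summed hypoxia response genes had their highest log2 changes (2.54 and 2.24). The part of that response in the Elf3 values was not tested. None of 10 tested cofactors and regulators of these factors was called, among them the AP-2 partners Cited2 and Kctd1, with log2 changes of -0.27 and -0.24 (adjusted p = 0.116 and 0.138).

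**Figure D4:**
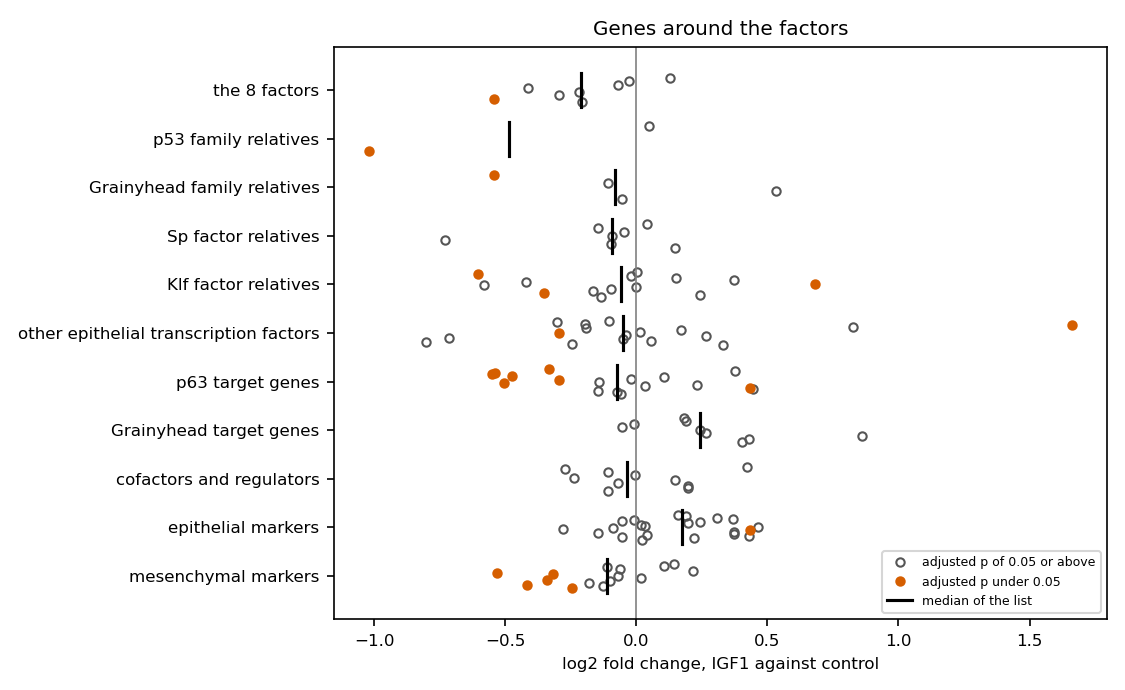
Log2 fold change, IGF1 against control, of each tested gene in the lists around the 8 factors, with orange points for an edgeR adjusted p under 0.05, open points for the rest and a black line at each list's median. Orange points to the left include Tfap2c (-0.54), Trp73 (-1.02) and Grhl1 (-0.54), and Elf3 (1.66) lies farthest to the right.

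For each factor, the genes with the most similar pattern over the 10 teeth were taken by Pearson's r of log2 CPM among 10865 genes with a mean of at least 10 CPM. The 10 teeth came in pairs from 5 embryos and differed in treatment and in depth, so r is given as a description. For Tfap2c they included Shh (r = 0.955), the secreted signal of the enamel knot. Shh was at 44.3, 27.8, 28.0, 25.8 and 50.9 CPM in the control teeth of embryos 1, 2, 3, 4 and 6 and at 12.7, 7.49, 13.5, 10.4 and 30.0 CPM in their IGF1 teeth (log2 change -1.31, SE 0.162, adjusted p = 0.000645). Embryos 1 and 6 thus had the highest control levels for both Tfap2c and Shh. For Tfap2b the nearest were Mcur1 (r = 0.967) and Pax9 (r = 0.945), a transcription factor of the dental mesenchyme. For Klf5 they were Perp (r = 0.951), a desmosome gene, and Rnf182 (r = 0.925), and for Grhl2 Spint2 (r = 0.896), an epithelial protease inhibitor, and Zfp618 (r = 0.871). Trp63 was nearest to Spred2 and Foxn3 (r = 0.941 and 0.938), Sp6 to Capg and Adcy7 (r = 0.940 and 0.937), Tfap2a to Klhl20 and Olfr731 (r = 0.941 and 0.938) and Grhl3 to Wrnip1 and Dym (r = 0.912 and 0.882).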

How the data were processed

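RNA-seq libraries of 5 IGF1 and 5 control molars were compared, grouped and paired by their labels. The deposited table gives estimated counts for each gene from Salmon 0.99.0, run after FastQC 0.11.8 and Trimmomatic 0.39 on GRCm38, per the submitters' processing notes, which also name DESeq2. The transcript set, strand setting and filter on genes are not given in the sources used here. All counts were whole numbers, each gene had at least 10 counts over all samples, and 18287 identifiers were in GENCODE M21 while 94 were not.

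Counts were normalized by TMM, given as CPM, and tested with edgeR 4.0.16 (quasi-likelihood test, filterByExpr, embryo as replicate block, Benjamini-Hochberg over 14504 genes) in R 4.3.3, which was tested on simulated data. Of 1666 genes called, 975 were higher and 691 lower. The pairing comes from the labels, since both teeth of a pair are from 1 embryo. The teeth of a pair deviated from their group means with correlations of 0.319, 0.208, -0.0389, 0.170 and 0.313. Replicates differed by more than sampling noise (chi-square per degree of freedom 4.68 to 19.4). Changes per embryo used log2 CPM with a prior count of 2, and 95% intervals over embryos used the SD and Student's t distribution. Single comparisons used exact two-sided sign-flip permutation tests (Python 3.11.15). Sequences and coordinates come from the annotation's coding transcripts on GRCm38.

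Named were all 8 factors, the called genes of each list (the 4 lowest p where more than 4), the 2 family relatives with the highest CPM, and the 2 genes most like each factor. Examples of genes that did not pass the test were chosen after their values were seen. Some genes that this rule names are not reported here. Members and lists were chosen with earlier results of these data known. Alternatives were DESeq2 1.42.0, limma-voom (limma 3.58.1), other scalings, filters, marker lists and prior counts, no block, and leaving out each embryo.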

Additional observations from a re-analysis of the deposited data

Results flagged for a closer look

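A tooth far from the other teeth of its group was looked for in 20 groups of 5 teeth, those of the 8 factors and of the summed epithelial and mesenchymal markers, by Dixon's ratio of the gap to the range, where chance gives about 1 such group in 20. It was found in 2. For Trp63 in the IGF1 teeth the ratio was 0.722, since the tooth of embryo 3 was at 243 CPM and the others at 151 to 177 CPM. For Grhl2 in the control teeth it was 0.753, since the tooth of embryo 2 was at 50.5 CPM and the others at 62.2 to 66.1 CPM.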

How the results depend on the processing

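Of 112 log2 changes of the 8 factors under the alternatives, 105 kept their direction and side of the threshold, and 7 factors stayed below 0 under every scaling. The number of factors called was 1, and 2 in DESeq2's Wald test (Tfap2b added), 0 with no replicate block and 1 to 3 with an embryo left out. It was 3 without embryo 3 (Trp63 and Tfap2b added). Tfap2c had adjusted p-values from 0.000477 to 0.111 over all alternatives, the highest with no replicate block, and its log2 change ran from -0.68 to -0.49. Leaving out the block changed no other factor's call. With an embryo left out, the log2 change ran from -0.70 to -0.17 for Sp6, from -0.35 to -0.12 for Tfap2a and from 0.07 to 0.19 for Grhl2. The direction turned for Grhl3 without embryo 4 (0.11) and without embryo 6 (0.02), and for Klf5 without embryo 1 (0.0026), with ranges over the embryos left out of -0.13 to 0.11 for Grhl3 and -0.25 to 0.0026 for Klf5. It also turned for the difference of Tfap2a and Tfap2b without embryo 6 (-0.087, with a range of -0.087 to 0.22). Grhl2 over the epithelial markers was -0.015 with the mean log2 CPM of the markers, and ran from -0.0092 to 0.014 with an embryo left out, being -0.0049 without embryo 2 and -0.0092 without embryo 4. With 16 markers without keratins it was 0.073. The cause of these changes was not tested.

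All genes called numbered 1666, and 887 with no replicate block, 962 with the summed epithelial markers as library size and 986 to 1602 with an embryo left out (986 without embryo 4, 994 without embryo 6). The share of calls that were higher was 33.1% with the epithelial markers as library size, where the median log2 change of all genes was -0.13, and 51.0% with upper quartile factors. Counts of a factor from 57 upward and 5 embryos limit the precision.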
